A study of Mus musculus with 2 samples.

Results

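The miR-106b-25 cluster is a group of 3 microRNAs, miR-25, miR-93 and miR-106b, made from one primary transcript inside the gene Mcm7. Their assays (mmu-miR-25, mmu-miR-93 and mmu-miR-106b) were picked by name from the 376 miRNA assays of a PCR plate, and all 3 names were found there. The trio was chosen with its ratios known, and miR-25 carries the highest ratio among the assays measured in both pull-downs, so the values below are a description with no test. The samples were 2 pull-downs from RAW264.7 cells, a mouse macrophage line, cultured in DMEM with serum. A probe was transfected for 24 hours, what it had hybridised to was taken up on streptavidin beads, and the miRNAs in it were measured by SYBR green PCR. One pull-down used a control probe and the other a probe for Stat3 mRNA, and the question was which miRNAs associate with that mRNA in the cells. The cells, culture and capture are labelled alike for both, and the labels name no stimulus, so the probe is the only labelled difference. The sources used here do not give the probe sequences, nor whether a pull-down pooled several cultures.

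A mature miRNA guides Argonaute proteins to messenger RNAs, mainly through bases 2 to 8 from its 5′ end, the seed. Mcm7 encodes a subunit of the helicase that licenses DNA replication, and the cluster in its intron is transcribed with it in dividing cells. miR-93 and miR-106b belong to the miR-17 seed family, known for lowering the cell cycle inhibitor Cdkn1a. miR-25 has another seed, shared with miR-92a and miR-32, and is known for lowering the pro-apoptotic gene Bcl2l11. Stat3 is the transcription factor that carries the IL-6 and IL-10 signals in macrophages.

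The mature guide strands are shown because the cluster holds 2 seeds, one of them shared by miR-93 and miR-106b. The assay names carry no arm, and each was paired with the guide strand of that name in RefSeq (build GRCm38.p6), where all 3 matched. Capitals mark the seed.
miR-25-3p: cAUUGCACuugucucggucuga
miR-93-5p: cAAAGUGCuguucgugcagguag
miR-106b-5p: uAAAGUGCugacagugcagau
All 3 lie on the minus strand, miR-25-3p at chr5:138165332-138165353, miR-93-5p at chr5:138165574-138165596 and miR-106b-5p at chr5:138165787-138165807. They are 22, 23 and 21 bases long. Placed base by base from the 5′ end, miR-93-5p and miR-106b-5p are the same at 16 of 21 positions. miR-25-3p matches miR-93-5p at 9 of 22 and miR-106b-5p at 5 of 21.

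The hairpins show from which arm each guide comes, with the guide in capitals.
miR-25 hairpin: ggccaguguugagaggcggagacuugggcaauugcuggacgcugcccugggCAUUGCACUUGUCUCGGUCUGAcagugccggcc
miR-93 hairpin: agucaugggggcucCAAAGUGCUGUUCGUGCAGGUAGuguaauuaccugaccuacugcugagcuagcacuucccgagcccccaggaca
miR-106b hairpin: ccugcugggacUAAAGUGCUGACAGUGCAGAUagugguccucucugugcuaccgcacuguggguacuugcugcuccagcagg
The guide of miR-25 is on the 3′ arm, at bases 52 to 73 of 84, and those of miR-93 and miR-106b are on the 5′ arm, at bases 15 to 37 of 88 and 12 to 32 of 82. The hairpins fit into 498 bases, with gaps of 118 and 126 bases between neighbours, and all 3 lie within the span of Mcm7. No assay for the opposite arms of these hairpins was found on the plate under their names.

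Each plate gave a threshold cycle (Ct) for 384 wells, and a lower Ct means more template in that assay. A Ct below 35 counted as a measurement, since the deposited ratios stop changing at that limit. Below it lay 121 wells of the control plate and 132 of the Stat3 plate. Each ratio sets the Stat3 probe over the control probe on the authors' scale, which adds 0.7 cycles to the difference between control and Stat3 Ct and takes 1 cycle as a factor of 2. The only repeated assay was UniSp3, a fixed template in 3 wells of each plate. Its differences between the plates (control minus Stat3) were -1.91 cycles in well B3, 0.02 in C2 and -0.76 in E3. They had a mean of -0.89 and an SD of 0.97 cycles (n = 3 wells). B3 is not in the same set of alternate plate rows as C2 and E3, so the SD also holds any difference between rows, described below. The UniSp3 wells had Ct values from 21.18 to 23.67, lower than those of miR-25 and miR-93, and the error at a later Ct was not measured. The SD covers the PCR and the well and not the pull-down, of which there was 1 for each probe. No difference here has a replicate check. For a difference between the ratios of 2 assays the same spread, taken as independent, comes to 1.38. Of 6 macrophage miRNAs, 5 were measured in both pull-downs and miR-142-5p in neither. Of 13 miRNAs typical of other cell types 4 were measured in both, 3 in the control pull-down alone and 6 in neither. Of all miRNA assays 26.6% were measured in both and 37.0% in at least 1, and the counts of the second list are not below these shares.

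In these pull-downs the 3 miRNAs of the cluster gave 3 different outcomes. miR-25 gave a far lower Ct with the Stat3 probe than with the control probe, miR-93 was higher by about as much as the typical miRNA of the plate, and miR-106b did not come below 35 cycles with either probe. Thus 2 of the 3 were below 35 cycles in both pull-downs, against 26.6% of all miRNA assays, and in at least one of them, against 37.0%. Both measured members were at least 2-fold higher with the Stat3 probe, and so were 73.0% of the 100 assays measured in both, so the direction alone does not set the pair apart.

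The Ct of miR-25 was 31.98 in the control pull-down and 26.41 in the Stat3 pull-down. The wells differed by 5.57 cycles, which gives a ratio of 77.2-fold, or 6.27 on the log2 scale. That difference, counted from 0, is 5.73 times the calibrator SD. Counted from the median of its set of plate rows, described below, the distance is 4.05 times that SD. With the control probe miR-25 was an assay of middle rank, 53rd of 100 by Ct. With the Stat3 probe it was 8th, among the lowest Ct values of the pull-down. Both wells lay clear of the limit, by 3.02 cycles in the control pull-down and 8.59 cycles in the other, and neither carried an instrument warning, so the ratio of miR-25 is a measured value on both sides.

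For miR-93 the control pull-down gave a Ct of 29.46 and the Stat3 pull-down one of 27.61, without a warning in either well. The difference of 1.85 cycles gives a ratio of 5.84-fold, or 2.55 on the log2 scale. Counted from 0 it is 1.9 times the calibrator SD, and from the median of its set of plate rows 0.23 times. miR-93 held the same place in both pull-downs, 20th of 100 by Ct. Its ratio was 33rd of 100, a little above the median of 4.22-fold.

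miR-106b is listed in the authors' deposited table at 1.625, a value it shares with 237 other rows. That number is the offset of 0.7 cycles alone and is no measured difference: a row holds it when both wells are at or above 35 cycles. No Ct can be tied to its name, because 238 wells fit it equally. Of these wells, 112 gave no Ct on either plate. The others gave Ct values upward of 35.08 (control plate) and 35.06 (Stat3 plate). miR-93 was thus at least 5.54 cycles below miR-106b in the control pull-down and at least 7.39 cycles below it in the Stat3 pull-down. These are distances between assays, whose efficiencies can differ, and not ratios of abundance.

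**Figure D1:**
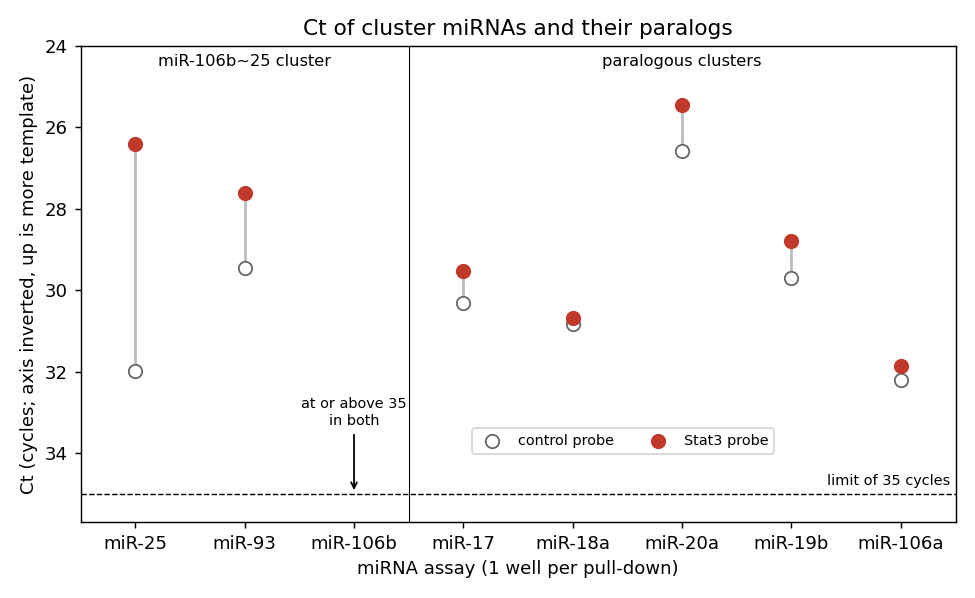
Ct of the cluster miRNAs and of the measured guide strands of the paralogous clusters, in cycles on an inverted axis, with 1 well per assay and pull-down; open points are the control probe and filled points the Stat3 probe, and the dashed line is the limit of 35 cycles. miR-25 lies at 31.98 and 26.41, miR-93 at 29.46 and 27.61, and miR-106b is at or above 35 in both.

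miR-25 and miR-93 changed places between the pull-downs. With the control probe the Ct of miR-25 was 2.52 cycles above that of miR-93, and with the Stat3 probe it was 1.20 cycles below. Their log2 ratios differed by 3.72, which is 13.2-fold, against a spread of 1.38 for such a difference. As each ratio compares an assay with itself, this contrast does not depend on the offset of 0.7 cycles. It is also free of the difference between alternate plate rows described next, since miR-25 (row I) and miR-93 (row K) lie in the same set of rows.

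The plate shows a difference between alternate rows. The rows B, D, F and every other one after them (26 assays) had a median ratio of 1.80-fold. The rows A, C, E and every other one after them (74 assays) had one of 5.01-fold. The sets hold different assays, so position on the plate and the choice of assays cannot be told apart, and centring on rows removes both. Within the 74, miR-25 had the highest ratio, 15.4-fold above that median, and miR-93 was 28th, 1.17-fold above it. In those rows 82.4% of assays reached a ratio of 2-fold and 60.8% one of 4-fold, against 53.0% for 4-fold among the 100. At 16-fold or more, where miR-25 lies, there were 6.76% of these assays, and 7.00% of the 100.

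Assays that started from a Ct like that of miR-25 mostly had a Stat3 Ct not far from it. There were 22 other assays whose control Ct lay within 1 cycle of that of miR-25, and with the Stat3 probe their Ct ran from 26.48 to 33.64 with a median of 31.32. All 22 lay above the 26.41 of miR-25. Their ratios had a median of 2.87-fold, and miR-25 exceeded it by 4.75 on the log2 scale. Of the 22, 15 were in the same set of plate rows as miR-25, so this window mixes the 2 sets. For miR-93 there were 20 such assays, with a median ratio of 4.91-fold and 6 of them at or above miR-93, which exceeded the median by 0.25. With the match made on Stat3 Ct instead, the distance of miR-25 was smaller. There were 16 assays within 1 cycle, with a median of 5.72-fold, which miR-25 exceeded by 3.76. For miR-93 there were 18, with a median of 5.47-fold, which it exceeded by 0.095. These windows were set after the values were seen. The top ratio of miR-25 in its windows, as in its plate rows, follows from its first rank among the 100.

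The order of the highest ratios is not resolved. Directly below miR-25 came miR-374 at 68.0-fold, a log2 distance of 0.18. Together with miR-15b at 63.98-fold, miR-423-3p at 49.5-fold and miR-99b at 40.1-fold, 4 assays lay within the spread of 1.38 of miR-25. Within 2 such spreads there were 11, of which the lowest, miR-140, was at 11.5-fold. For miR-93 the neighbours in the order were let-7c at 5.95-fold and let-7a at 5.801-fold, and 60 of the other assays lay within the spread of 1.38, between 2.26-fold and 14.1-fold. The rank of miR-93 is therefore uncertain over much of the plate.

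**Figure D2:**
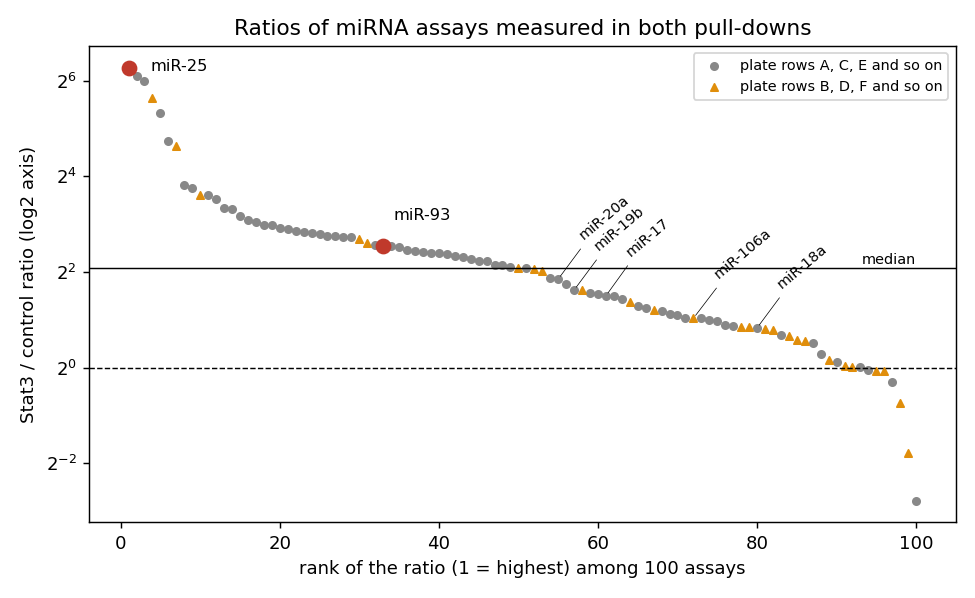
Ratios of Stat3 over control probe (log2 axis) for the 100 miRNA assays measured in both pull-downs, in order of rank; circles and triangles are the alternate plate rows (circles from A, triangles from B), the solid line is the median of 4.22-fold and the dashed line a ratio of 1. miR-25 is first at 77.2-fold, miR-93 is 33rd, and the 5 labelled paralogs all lie below the median.

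The assays most like each member were found by their distance in control Ct and Stat3 Ct, over the 2 pull-downs. Nearest to miR-25 were miR-374 at 0.41 cycles, with Ct values of 32.16 and 26.78, miR-423-3p at 0.88 cycles, with 32.20 and 27.27, and miR-99b at 0.89 cycles, with 31.10 and 26.48. None of them is a product of this cluster. Nearest to miR-93 were let-7g at 0.16 cycles, with 29.31 and 27.68, miR-320 at 0.41 cycles and let-7c at 0.50 cycles. By these Ct values, and not by place on the plate, miR-93 thus lay among many assays and miR-25 in a sparse region with few others.

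**Figure D3:**
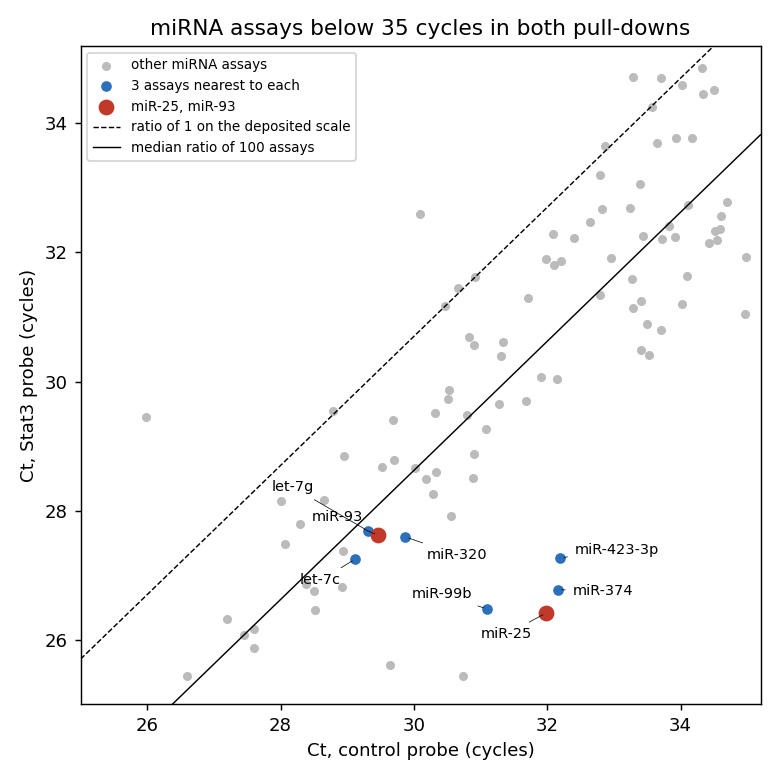
Ct with the Stat3 probe against Ct with the control probe, in cycles, for the 100 miRNA assays measured in both pull-downs, each point 1 assay; the solid line is the median ratio and the dashed line a ratio of 1 on the deposited scale. miR-93 lies near the median line among many assays, and miR-25 lies far below it beside miR-99b, miR-374 and miR-423-3p.

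The well of miR-25 is in row I and column 17. As its ratio is the highest of the 100, that it exceeds those of the wells around it follows from the choice of the member, and only the values there are given. Its plate row holds 8 other miRNA assays below 35 cycles on both plates, with ratios from 1.0-fold to 11.5-fold, the highest being miR-140, and a median of 5.89-fold. In its plate column there were 3, from 0.288-fold to 13.5-fold. In the wells that touch it 1 assay was measured in both, the one taken as miR-451, at 1.0-fold. For miR-93, in row K and column 14, the 6 others of its row had a median of 5.72-fold, and 3 of them exceeded miR-93, the highest being miR-15b at 63.98-fold.

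The seed of miR-93 and miR-106b is carried by 7 mature mouse miRNAs in RefSeq, of which 6 had an assay on the plate. Those of the sister clusters are shown to set against the cluster's own, with the seed in capitals.
miR-20a-5p: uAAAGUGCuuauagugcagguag
miR-17-5p: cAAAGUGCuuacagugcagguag
miR-106a-5p: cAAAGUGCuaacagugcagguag
miR-20b-5p: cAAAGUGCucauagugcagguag
miR-93-5p has the same base as each of miR-17-5p, miR-20a-5p and miR-106a-5p at 19 of 23 positions, and as miR-20b-5p at 20. miR-106b-5p has the same base as each of miR-17-5p, miR-20a-5p and miR-106a-5p at 18 of 21, and as miR-20b-5p at 17. miR-17-5p and miR-106a-5p differ at 1 position of 23, so assays of this family can share signal, and how well they separate was not tested here.

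Of this seed family 4 assays gave a ratio measured on both sides, and all 4 ratios exceeded 2-fold, against 73.0% of all assays. miR-93 had the highest ratio of the 4, at 5.84-fold. miR-20a went from a control Ct of 26.59 to a Stat3 Ct of 25.44, which is 3.60-fold. miR-17 went from 30.32 to 29.52 (2.83-fold) and miR-106a from 32.20 to 31.87 (2.04-fold). Neither miR-106b nor miR-20b came below 35 cycles, so the family held assays across most of the range of Ct.

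The lead of miR-93 over its seed relatives was small. On the log2 scale it was 0.70 over miR-20a, 1.05 over miR-17 and 1.52 over miR-106a. The first and the second are below the spread of 1.38 for a difference between assays. The third is slightly above it, but miR-106a lies in row F. Centred on the median of its own set of rows, miR-106a was at 1.13-fold and miR-93 at 1.17-fold, and the distance between them came to 0.041. The ratio of miR-93 was thus not separated from those of miR-20a and miR-17. Its distance from miR-106a exceeded the spread as deposited, and did not after centring.

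The seed of miR-25 is carried by 6 mature mouse miRNAs in RefSeq. Their sequences are shown because only miR-25 among those assayed gave a Ct below 35 cycles.
miR-92b-3p: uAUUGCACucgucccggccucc
miR-32-5p: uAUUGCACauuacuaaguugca
miR-363-3p: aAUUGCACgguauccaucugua
miR-367-3p: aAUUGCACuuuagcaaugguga
miR-92a-3p: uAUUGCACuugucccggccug
The first 4 had an assay on the plate, and none of them came below 35 cycles with either probe. Base by base, miR-25-3p matches miR-92b-3p at 16 of 22 positions, miR-367-3p at 12, miR-32-5p at 13 and miR-363-3p at 9. miR-92a-3p is nearest, at 18 of 21, and no assay was found on the plate under its name. The high ratio of miR-25 therefore has no second measured carrier of its seed to be set beside it.

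The cluster has 2 sister clusters that arose from the same ancestor, miR-17-92 and miR-106a-363. Of 10 of their guide strands listed, 9 had an assay, 5 were measured with both probes (against 26.6% of all miRNA assays) and 4 with neither (miR-19a, miR-18b, miR-20b and miR-363-3p). Of the 5 ratios 4 exceeded 2-fold, near the share of 73.0% among the 100, and their median was 2.83-fold against 4.22-fold over all 100 assays. miR-20a led at 3.60-fold. miR-19b went from 29.71 to 28.79, which is 3.07-fold. miR-18a was the lowest, from 30.82 to 30.69, or 1.78-fold. All 5 lay below miR-93 and far below miR-25, whose log2 ratio exceeded theirs by 4.42 for miR-20a to 5.44 for miR-18a. After centring on plate rows the smallest of these distances was 3.77, to miR-106a. This holds for the guide strands only. The opposite arm of miR-18a, assayed as miR-18a*, went from 33.52 to 30.41, or 14.1-fold. It was 8th of the 100 ratios, above miR-93 and below miR-25.

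How far each miRNA is called higher depends on what the plates are scaled to. With the median of all 100 assays set to 1, miR-25 was 18.3-fold higher and miR-93 1.38-fold. With the mean of 4 reference miRNAs (miR-16, miR-423-3p, miR-191, miR-103) set to 1, miR-25 was 12.99-fold higher and miR-93 was at 0.983-fold. One of these references, miR-423-3p, is itself among the assays nearest to miR-25, and without it the values were 26.3-fold and 1.99-fold. On the UniSp3 wells they were 87.8-fold and 6.65-fold. On each of these scales miR-25 was at least 12.99-fold higher, whereas miR-93 lay above or below 2-fold according to the scale. The small RNA controls were not used as a scale. On the deposited scale their own ratios were 4.33-fold for U6, 0.70-fold for RNU1A1 and 0.47-fold for RNU5G, so they differ among themselves.

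**Figure D4:**
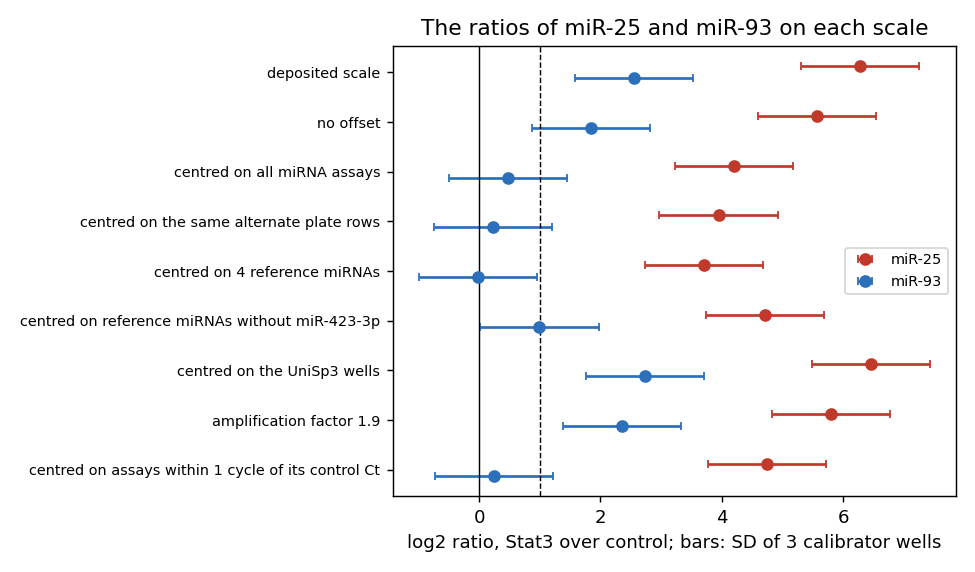
Log2 ratio of Stat3 over control probe for miR-25 and miR-93 on 9 scales, with bars of 1 SD of the 3 UniSp3 calibrator wells (0.97 cycles); the solid line marks no difference and the dashed line a 2-fold difference. miR-25 runs from 3.70 to 6.46 and miR-93 from -0.025 to 2.73.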

How the data were processed

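The 2 pull-downs were assayed on Exiqon multiplex miRNA arrays, per the labels' protocols. The deposited plate files are exports of SDS 2.3 with a manual threshold of 0.15, per the file headers, and each holds a raw Ct score per well, with no normalization and no miRNA names. The authors' deposited table holds 1 ratio for each of 384 assays. Its header calls the ratio a log fold change, but once sorted, the 384 values agree within 0.0005 with linear ratios of the plates: the control Ct less the Stat3 Ct, plus 0.7, as a power of 2, with Ct capped at 35. How the authors chose offset and ceiling is not given in the sources used here. Names were tied to wells through this identity: of 146 informative rows, 142 matched 1 well, among them miR-25 and miR-93. The spike-in UniSp6 shares a ratio with miR-451 and was taken as the well of lowest Ct. That ratio is 1.00-fold, so the deposited scale sets UniSp6 close to 1. Whether the offset was taken from UniSp6 was not tested.

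Values were computed in Python 3.11.15 with NumPy 2.4.6. The matching was tested on simulated data made by the same formula. That checks the code and cannot show that the deposited names were tied to the right wells. With 1 pull-down per probe no test was made. Named are the members, their arms, paralogs and seed relatives, the 3 assays nearest to each, their neighbours in the order, references and controls. miR-142-5p comes from the marker list. miR-15b, miR-140, miR-451 and miR-18a* fall outside this rule and were named after their values were seen. They are assays of like ratio, plate neighbours or, for miR-18a*, the opposite arm of a paralog. The members, lists and rules were chosen with earlier results of these data known. Scales, ceiling, amplification factor and threshold were varied.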

Additional observations from a re-analysis of the deposited data

Results flagged for a closer look

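One signal lies outside the comparison and touches miR-106b. The miR-106b well is one of 238 that did not come below 35 cycles on either plate. A late Ct was still given in 89 of them on the Stat3 plate and in 67 on the control plate. Only 30 gave one with both. Which of these wells is that of miR-106b cannot be read from the files used here.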

How the results depend on the processing

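On the log2 scale miR-25 was at 6.27 and miR-93 at 2.55 as deposited. They came to 4.19 and 0.47 when centred on all miRNA assays, 3.95 and 0.22 on the same alternate plate rows, 3.70 and -0.025 on 4 reference miRNAs, and 4.72 and 0.99 without miR-423-3p among these. On assays within 1 cycle of each one's control Ct, an alternative chosen after seeing the data, they were 4.75 and 0.25. On each of these 5 scales 1 of the 3 cluster miRNAs was at least 2-fold higher, instead of 2. Without the offset, on the UniSp3 wells or with an amplification factor of 1.9, both moved by less than the calibrator SD, and the count of 2 was the same with a ceiling of 33 cycles or a threshold of 4-fold. The difference between miR-25 and miR-93 was 3.72, and 3.45 with the factor of 1.9. The median of the paralogs, 1.499, turned to -0.58 when centred on all assays and to -0.71 on plate rows. No paired analysis was possible because each probe has 1 pull-down. The error between pull-downs is unknown, and a Ct at or above 35 gives no level.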
